A study of Mus musculus with 4 samples.

Results

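Mature B cells were the rare cells in a sort of donor stem and progenitor cells that carried transcripts of CD20, of the receptor signalling chain Cd79a and of immunoglobulin D together. They were taken from the aggregated matrix as cells with at least 500 detected genes and at most 10% mitochondrial transcripts that had 1 or more unique molecular identifiers (UMIs, single counted transcripts) of Ms4a1 (CD20), Cd79a and Ighd. They also had to show no UMI of the surrogate light chain genes Igll1 and Vpreb1 or of Siglech, a plasmacytoid dendritic cell gene, and at most 4 UMIs of Jchain, the joining chain of secreted antibody. Of 41122 cells that met the filter on genes and mitochondrial transcripts (called kept cells here), 140 met this rule, which is 0.34%.

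The study transplanted marrow that carried a heterozygous Srcap mutation, or wild-type marrow, in competition with other cells and examined the donor cells (CD45.2+) of C57BL/6 bone marrow 20 weeks later. The labels give 2 samples of Srcap_mutant HSPCs (hematopoietic stem and progenitor cells) and 2 samples of WT HSPCs. SRCAP is a chromatin remodeling ATPase that exchanges H2A for its variant H2A.Z. The change in the Srcap allele, the recipients and the competitor cells are not described in the labels. Barcodes carry a suffix from 1 to 4, called library 1 to library 4 here, and no label ties a library to a genotype. Mutant and WT cells could therefore not be compared, values are given library by library, and no p-value is given.

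Mature B cells are naive or antigen-experienced lymphocytes that carry one rearranged antibody on their surface as their antigen receptor. Naive cells make immunoglobulins M and D from the same heavy chain locus by alternative splicing, pair either with a kappa or a lambda light chain, and signal through the Cd79a and Cd79b chains. They form in the bone marrow from pro-B and pre-B cells, leave through the blood for spleen and lymph nodes, and return to the marrow as recirculating cells. Stimulated cells can become plasma cells, which secrete antibody and give up much of the B cell program.

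The libraries held 35, 24, 39 and 42 mature B cells among 12418, 10028, 9650 and 9026 kept cells. These are shares of 0.282% (exact 95% binomial interval 0.196% to 0.392%), 0.239% (0.153% to 0.356%), 0.404% (0.288% to 0.552%) and 0.465% (0.336% to 0.628%). Libraries 3 and 4 thus had the higher shares, and the interval of library 4 overlapped that of library 1 and of library 2. The intervals cover counting error only. Cells meeting a rule for pro-B and pre-B cells (2 or more UMIs of Cd79a, with Igll1 and Vpreb1 and without Ighd) numbered 329, 198, 298 and 282, and plasma cells (50 or more UMIs of Jchain) numbered 97, 76, 106 and 176. In all libraries together there were 1107 pro-B and pre-B cells and 455 plasma cells. The sort was labelled as HSPCs, and 31236 kept cells, 76.0%, carried the stem cell factor receptor gene Kit without Cd79a. A Kit UMI was present in 22 of the mature B cells.

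The mature B cells were shallow. Their median UMI count was 2072, 2285, 2024 and 2641 in libraries 1 to 4, against 9854, 10245, 10249 and 10077 for all other kept cells, and their median number of genes was 968 against 3046. The 1107 pro-B and pre-B cells had a median of 14190 UMIs and the 455 plasma cells 17732. The whole range ran from 805 to 38544 UMIs, and 109 of the 140 cells had 4000 or fewer. No cell with 300 or more but under 500 genes met the other criteria.

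**Figure D1:**
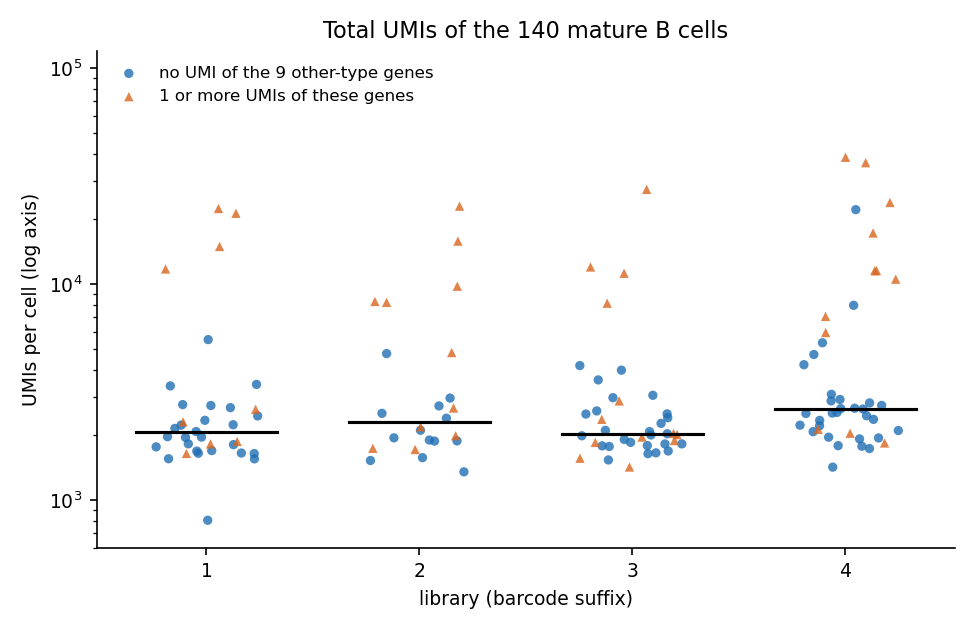
Total UMIs of each mature B cell (log axis) by library, with a black line at the library's median; orange triangles have 1 or more UMIs of 9 genes of other cell types, and points are spread sideways at random. Most cells lie near 2000 UMIs, and 21 cells lie above 8000, of which 20 are orange triangles.

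A minority of deep cells held most of the transcripts. The 21 cells above 8000 UMIs carried 55.8% of all UMIs of the mature B cells, and 20 of them also had UMIs of at least 1 of 9 genes of other cell types (Kit, Cd34, Mpo, Elane, Csf1r, Cd3e, Pf4, Klf1 and Gata1). In these 20 cells the median UMI count was 13435, against 2072 in the 119 cells at 8000 or fewer UMIs. Most B cell genes shown did not scale with this depth, though Ighm had a median of 12 UMIs in the 20 deep cells and 7 in the 119 others. Medians per cell in the 20 deep cells and in the 119 others were 3 and 3 UMIs of Ms4a1, 7.5 and 6 of Cd79a, 18.5 and 20 of Igkc, 29.5 and 27 of Cd74, and 10.5 and 9 of H2-Aa.

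Progenitor genes were seen mainly in the deep cells. Adgrg1, a receptor of stem and progenitor cells that was not among the 9 genes, had a UMI in 19 of the 20 deep cells (median 5.5), in 2 of the 119 others, and in 92.9% of Kit-positive cells without Cd79a (median 4). Kit and Cd34, which are among the 9 genes that chose these cells, had a UMI in 19 and 15 of the 20. Actb had a median of 44 UMIs in the deep cells, 12 in the others and 29 in the Kit-positive cells, and Gapdh had 12, 0 and 7. In all, 45 mature B cells had a UMI of the 9 genes and 95 had none. The part of the deep cells in each result below was not tested, and many list counts are also given for the 95 cells without other-type UMIs (26, 13, 26 and 30 in libraries 1 to 4, median 2101 UMIs). Of all kept barcodes, 357 had a sequence that also occurs in another library, and 1 of them belonged to a mature B cell.

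**Figure D2:**
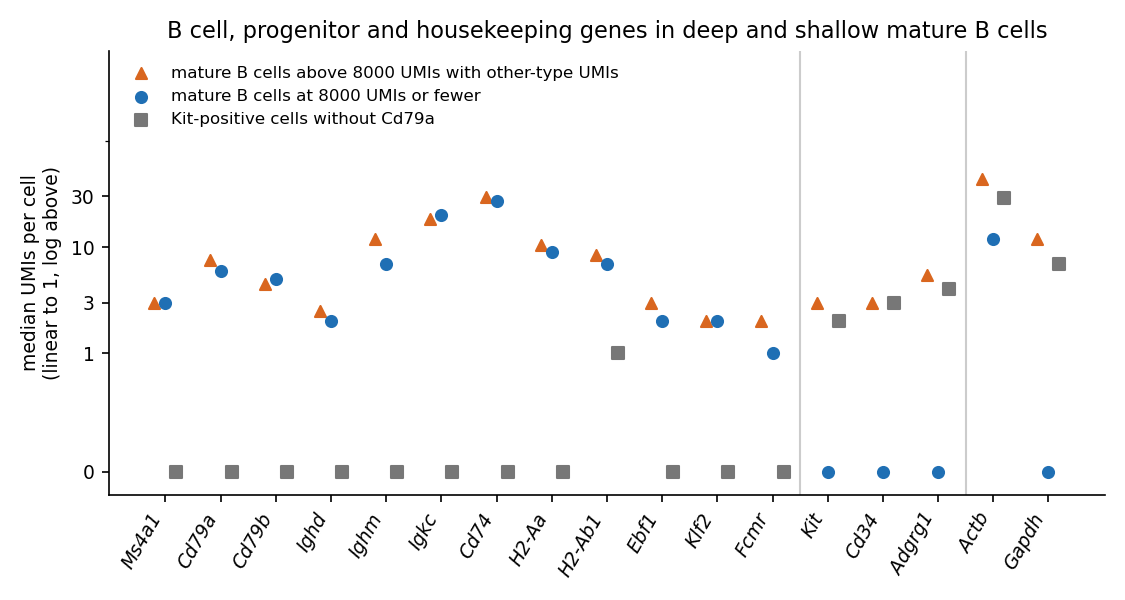
Median UMIs per cell (linear to 1, log above) of B cell genes (left), progenitor genes (middle) and housekeeping genes (right) in deep mature B cells (above 8000 UMIs, with other-type UMIs), mature B cells at 8000 or fewer UMIs and Kit-positive cells without Cd79a. Most B cell genes sit at like levels in the first 2 groups, with Ighm at 12 and 7 UMIs. Kit, Cd34 and Adgrg1 are at a median of 0 in the cells at 8000 or fewer UMIs and at 3 to 5.5 UMIs in the deep cells.

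The values that chose the cells are a description only. Ighd was at exactly 1 UMI in 54 of the 140 cells, Ms4a1 in 23 and Cd79a in 2, and 72 cells had 2 or more UMIs of all 3 genes. Just outside, 92 cells met every criterion except that they had no Ighd UMI, and 68 of them had under 4000 UMIs. A single cell fell out for 5 or more UMIs of Jchain (27024 UMIs), 4 for Igll1 or Vpreb1, and 3 for more than 10% mitochondrial UMIs. No cell inside the limit had 3 or 4 Jchain UMIs, and 7 had at least 1.

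The label was checked against B cell markers that the rule did not use. Cd79b and Ly6d of the marker list are among the genes given below as standing highest over all other cells. Cd79b, the partner chain of Cd79a, had a UMI in 136 of the 140 cells, Cd37 in 127 and Ebf1 in 124. Cd74, the invariant chain, had a UMI in all 140 cells, and Rag1, Rag2 and Vpreb2 in none. Levels below are UMIs of a gene per 1000000 UMIs (CPM), summed over the cells of a library, with immunoglobulin UMIs left out of the total and libraries always in the order 1 to 4. They are levels within a cell's RNA, so they do not account for how much RNA a cell holds.

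The antigen receptor came first as Ighm and Ighd. Ighm had 1564 UMIs over the 140 cells and Ighd 333, with medians of 7 and 2 per cell. Ighm exceeded Ighd in 117 cells, equalled it in 10 and stood below it in 13. Ighd made up 26.4%, 22.0%, 23.9% and 10.8% of the pair in libraries 1 to 4, so library 4 had the lowest share. Its median Ighm was 12 UMIs per cell, against 5, 7 and 7 in libraries 1 to 3. In the 95 cells without other-type UMIs the Ighd shares were 26.6%, 14.8%, 21.9% and 12.1%. One library 4 cell, present in both sets, had 184 Ighm and 2 Ighd UMIs. Library 4 held 833 Ighm UMIs in all and 536 within the 95 cells, so its low shares rest in part on that cell. Shares without it were not computed. Switched constant genes (Ighg1, Ighg2b, Ighg2c, Ighg3, Igha and Ighe) had 18 UMIs in 14 cells, and no cell had more than 4.

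Light chains are encoded by Igkc on chromosome 6 (70726435 to 70726966 on the plus strand of GRCm38, 1 constant exon) and by the lambda constant genes on chromosome 16. Iglc2 and Iglc3 are alike, with 94.1% identity over their GENCODE M21 transcripts and 85.6% over the last 100 bases, nearer to where these 3' libraries read, and whether counting split reads between them was not tested. Over the whole transcripts identity was 66.7% between Iglc1 and Iglc2 and 67.8% between Iglc1 and Iglc3. The start of the constant region is shown because it holds bases that tell the genes apart. The 75 bases run 5′ to 3′ in the coding direction, and capitals mark positions where the 3 genes are not all the same. The genes lie on the minus strand of GRCm38 at chr16:19061618-19062071 (Iglc1), chr16:19198396-19200351 (Iglc2) and chr16:19065230-19065681 (Iglc3).
Iglc1: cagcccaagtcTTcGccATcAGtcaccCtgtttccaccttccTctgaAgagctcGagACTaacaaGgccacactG
Iglc2: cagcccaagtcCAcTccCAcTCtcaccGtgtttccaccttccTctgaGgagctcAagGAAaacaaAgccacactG
Iglc3: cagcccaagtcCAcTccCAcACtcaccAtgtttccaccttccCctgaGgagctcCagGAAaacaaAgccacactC
Over these bases Iglc2 and Iglc3 differ at 5 positions, and Iglc1 differs from Iglc2 at 14 and from Iglc3 at 15.

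Igkc had a UMI in 134 of the 140 cells, with medians of 20, 14, 18 and 27.5 UMIs in libraries 1 to 4. Iglc2 had a UMI in 128 cells, Iglc3 in 125 and Iglc1 in 74. Free RNA can put UMIs of abundant transcripts into any droplet, so cells were thinned to 1500 UMIs each and set beside the Kit-positive cells without Cd79a. After thinning, Igkc was seen in 92.6% of 136 mature B cells and in 9.76% of Kit-positive cells. Iglc2 was seen in 79.4% and 0.61%, and Iglc3 in 77.9% and 0.1%. The unthinned shares in the Kit-positive cells were 49.5% for Igkc, 3.93% for Iglc2 and 0.64% for Iglc3, at a median depth of 10418 UMIs.

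With kappa defined as over 80% Igkc among 5 or more light chain UMIs and lambda as under 20%, 139 cells could be classed. Of these, 47 (33.8%, exact 95% interval 26.0% to 42.3%) were kappa, 23 (16.5%, 10.8% to 23.8%) were lambda and 69 (49.6%, 41.1% to 58.2%) lay between. The cells in between were not the deep ones alone, since 41 of the 94 classed cells without other-type UMIs lay there too. Among plasma cells classed in the same way, 412 of 455 were kappa, 38 lambda and 5 between. Immunoglobulin made up 49.7% of the UMIs of plasma cells and 1.14% of those of mature B cells, at median depths of 17732 and 2244.5 UMIs. The same limits thus act on unlike counts, and a few UMIs weigh more in a mature B cell. The part of this in the gap was not tested. Kappa mature B cells still had an Iglc2 UMI in 80.9% and an Iglc3 UMI in 78.7% of cells, with medians of 2 UMIs of each against 29 of Igkc. Lambda mature B cells had medians of 17 UMIs of Iglc2, 12 of Iglc1, 3 of Iglc3 and 1 of Igkc.

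By the chain with more UMIs, a rule added after seeing the data, lambda led in 35 of 140 cells (25%, exact 95% interval 18.1% to 33%), Igkc in 102, and 3 were equal. Lambda led in 5 of 35, 9 of 24, 9 of 39 and 12 of 42 cells in libraries 1 to 4. Without cells that had other-type UMIs, it led in 23 of 95, and in 7 of 13 cells of library 2. The library intervals overlapped, from 4.81% to 30.3% in library 1 to 18.8% to 59.4% in library 2.

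**Figure D3:**
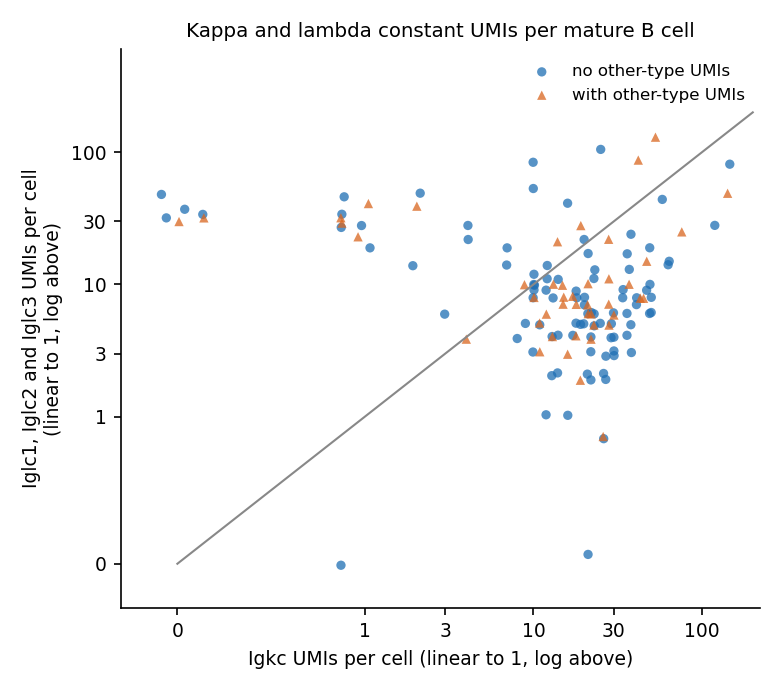
Igkc UMIs (x axis) against the sum of Iglc1, Iglc2 and Iglc3 UMIs (y axis) per mature B cell, both linear to 1 and log above, with a grey line at equality and points shifted slightly at random. The 102 cells below the line have more Igkc UMIs and the 35 above it more lambda UMIs, and many cells on either side carry UMIs of both kinds.

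Set against all other kept cells of the same library, genes of receptor signalling stood higher. A gene counts as higher or lower here when its ratio was past 2-fold one way in each of the 4 libraries, on the log2 scale of CPM plus 5, which understates the ratio of low genes. Of 5926 genes at 20 CPM or more as the mean of both sides, 175 were higher (2.95%) and 23 lower (0.388%). With the 95 cells without other-type UMIs, 287 of 5735 genes were higher (5%) and 409 lower (7.13%). No statistical test over samples stands behind these counts, and the mature B cells were chosen by 3 genes of the same program.

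In receptor signalling, 10 of 21 genes tested were higher and none lower, with a median log2 ratio of 1.39 against -0.16 over all genes, and with the 95 cells 12 of 21 were higher (1.99 against -0.29 over all genes). Cd79b, outside the rule, had 1019, 912, 1862 and 1031 CPM in mature B cells and 50.8, 44.5, 53.2 and 53.3 CPM in all other cells, and the groups did not overlap. Bank1, a scaffold that links the receptor to calcium release, had 205, 378, 379.9 and 172 CPM in mature B cells against 1.60, 2.29, 1.57 and 1.70 CPM in all other cells. Prkcb, the kinase that links the receptor to NF-kappaB, had 95.3, 111, 209 and 93.4 CPM in mature B cells against 4.71, 5.48, 4.67 and 5.75 CPM in all other cells. For all 3 genes the lowest mature B cell library lay above the highest library of the other cells. They were named from genes already higher in every library, and the share of all genes without overlap was not counted. Lyn, Blk, Blnk, Rasgrp3, Malt1 and Rel were also among those higher. Syk, the first kinase after Cd79, had 103, 193, 268 and 138 CPM in mature B cells against 56.0, 69.2, 54.7 and 51.0 CPM in all other cells and missed the rule in library 1. Btk, the kinase downstream of it, had 95.3, 27.6, 96.8 and 82.2 CPM in mature B cells against 57.3, 62.2, 54.0 and 55.7 CPM in all other cells, and these groups overlapped.

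Among co-receptors and accessory receptors, 8 of 9 genes tested were higher (median log2 ratio 2.87), and 8 of 10 with the 95 cells (3.61). Ly86, a partner of the Toll-like protein CD180, had 227, 157, 253 and 370.0 CPM in mature B cells against 11.5, 12.4, 18.2 and 20.7 CPM in all other cells. Cr2, a complement receptor, had 36.6, 119.8, 59.6 and 26.2 CPM in mature B cells against 2.30, 3.19, 1.89 and 2.17 CPM in all other cells and was higher in every library despite the spread. Cd81, a tetraspanin, was the 1 tested gene that missed, with 191, 166, 246 and 153 CPM in mature B cells against 161, 154, 172 and 178 CPM in all other cells. Cd40, the receptor for T cell help, lay under the filter at 58.6, 9.21, 52.1 and 33.6 CPM in mature B cells against 0.578, 0.437, 0.455 and 0.541 CPM in all other cells and had a UMI in 21 cells.

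Of 11 inhibitory genes tested, 4 were higher, namely Cd22, Siglecg, Fcrla and Btla, and with the 95 cells 5 of 10 were, these 4 and Ptpn6. Cd22, a sialic acid receptor that dampens the antigen receptor, had 87.9, 82.9, 96.8 and 63.5 CPM in mature B cells against 0.515, 0.445, 0.394 and 0.284 CPM in all other cells. Siglecg had 191, 313, 350.1 and 250.4 CPM in mature B cells against 9.99, 10.6, 8.68 and 8.46 CPM in all other cells. The Fc receptor gene Fcgr2b varied, with 14.7, 73.7, 67.0 and 48.6 CPM in mature B cells against 7.96, 8.32, 8.85 and 8.85 CPM in all other cells, and Cd5, an inhibitory receptor of B1 cells, was at 0 in all 140 cells, which by a limit of 3 counts (3 cells of 140) allows a share of cells with a UMI of up to 2.14%.

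Transcription factors of the lineage were higher for 11 of 20 genes tested (median log2 ratio 1.68), and for 12 of 20 with the 95 cells (2.55). Pax5, which holds B cell identity, had 176, 258, 238 and 157 CPM in mature B cells against 8.32, 8.54, 8.77 and 10.6 CPM in all other cells. Klf2, a factor of quiescent and recirculating lymphocytes, had 513, 562, 663 and 456 CPM in mature B cells against 8.10, 7.16, 6.73 and 6.92 CPM in all other cells, and a UMI in 113 cells. Spib had 58.6, 101, 119 and 153 CPM in mature B cells against 0.790, 0.639, 0.832 and 0.916 CPM in all other cells. The groups did not overlap for any of the 3 genes, which were likewise named from genes already higher in every library. Ebf1, Pou2af1, Pou2f2, Bach2, Ikzf3, Ets1, Id3 and Zfp318 made up the rest. Irf4, which rises on the way to plasma cells, had 7.33, 0, 7.45 and 29.9 CPM in mature B cells and a UMI in 7 of them.

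MHC class II genes load and show peptides to T helper cells. Of 11 tested, 8 were higher (median log2 ratio 2.91), and with the 95 cells without other-type UMIs 10 of 12 were higher (3.74). Cd74, the invariant chain, was at 6639, 5435, 7986 and 6259.7 CPM in mature B cells and at 462, 393, 363 and 453 CPM in all other cells. In the 95 cells it was at 11548, 11057, 12041 and 11611 CPM. H2-Aa, the alpha chain of I-A, had 2477, 1778, 2928 and 2216 CPM in mature B cells against 222, 201, 171 and 191 CPM in all other cells. H2-DMb2, a chain of the peptide editor H2-M, had 249, 230.3, 335 and 235 CPM in mature B cells against 3.48, 2.87, 2.81 and 2.90 CPM in all other cells, and H2-Oa, a chain of its inhibitor, had 109.9, 175, 164 and 101 CPM in mature B cells against 21.3, 20.1, 15.7 and 14.5 CPM in all other cells. Ciita, the coactivator of these genes, had 73.3, 129, 119 and 67.3 CPM in mature B cells against 8.40, 9.90, 6.53 and 6.52 CPM in all other cells. The costimulatory gene Cd86 had a UMI in 5 cells only.

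Promoters of class II genes are known for a set of boxes just before the start, of which the Y box is read by the factor NF-Y. The letters CTGATTGG, a form of that box, were searched on both strands in the 250 bases before the start in RefSeq promoters of GRCm38.p6. They stood in 3.83% of 32851 promoters and in 3 of the 10 genes of the class II list that the table holds. The 3 are shown because they hold the motif, 5′ to 3′ toward the start, 90 bases each, with the motif in capitals.
H2-Oa, chr17:34092289-34092378, plus strand: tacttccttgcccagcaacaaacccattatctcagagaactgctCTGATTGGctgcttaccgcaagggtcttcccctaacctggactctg
H2-Aa, chr17:34287825-34287914, minus strand: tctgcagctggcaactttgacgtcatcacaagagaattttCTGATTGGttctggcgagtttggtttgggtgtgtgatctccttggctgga
H2-Eb1, chr17:34305765-34305854, plus strand: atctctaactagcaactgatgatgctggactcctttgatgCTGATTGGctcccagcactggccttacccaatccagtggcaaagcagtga
The motif began 46, 51 and 62 bases before the start of H2-Oa, H2-Aa and H2-Eb1 and read in the direction of the gene in all 3. A match is a description of letters, and nothing was measured at these promoters.

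**Figure D4:**
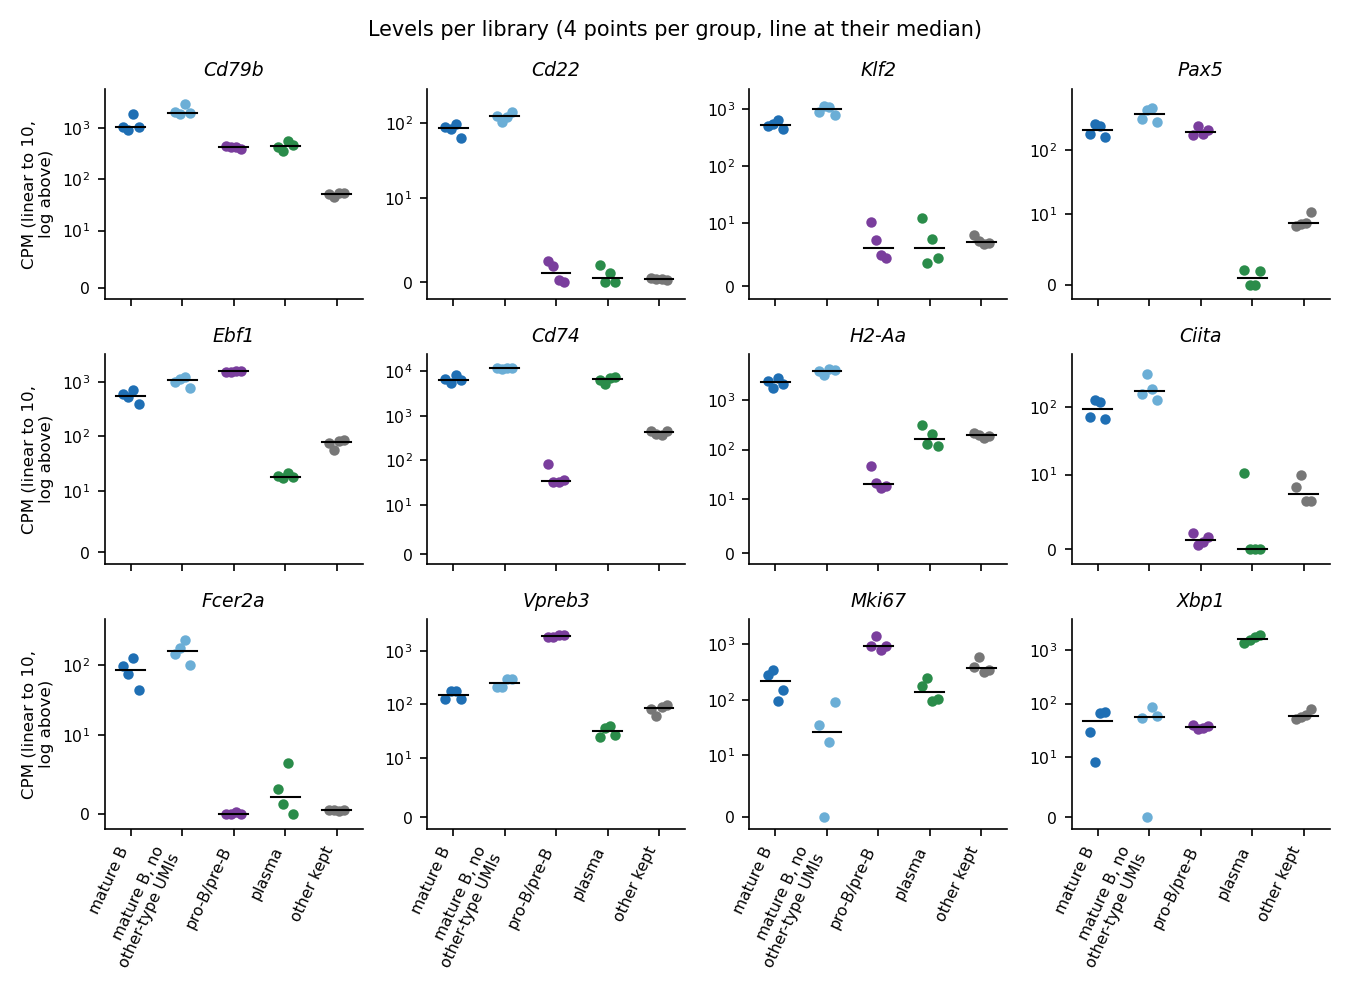
CPM of 12 genes (linear to 10, log above) in mature B cells, mature B cells without other-type UMIs, pro-B and pre-B cells, plasma cells and all other kept cells, with 4 library points per group and a line at their median. Cd22, Klf2, H2-Aa, Ciita and Fcer2a stand highest in the mature B groups in all 4 libraries, Vpreb3 and Mki67 in pro-B and pre-B cells, and Xbp1 in plasma cells.

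Homing genes were higher for 4 of 13 tested, and for 7 of 14 with the 95 cells. S1pr1, the receptor that lets lymphocytes leave tissue for blood, had 80.6, 73.7, 112 and 82.2 CPM in mature B cells against 7.72, 7.37, 6.73 and 8.48 CPM in all other cells. Cxcr5, which guides B cells to follicles, had 22.0, 82.9, 37.2 and 37.4 CPM in mature B cells against 0.190, 0.227, 0.180 and 0.192 CPM in all other cells. Ccr7 and Gpr183, which place cells within lymphoid organs, were the others, and Ccr7 had 65.9, 9.21, 44.7 and 52.3 CPM in mature B cells against 1.66, 1.57, 1.57 and 1.56 CPM in all other cells. Cxcr4, the marrow retention receptor, had 14.7, 36.8, 14.9 and 37.4 CPM in mature B cells against 27.1, 28.6, 35.1 and 34.1 CPM in all other cells, which overlapped.

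Of survival genes, 5 of 7 tested were higher, and 6 of 8 with the 95 cells. Tnfrsf13c, the BAFF receptor on which mature B cells depend, had 109.9, 92.1, 156 and 176 CPM in mature B cells against 7.25, 7.17, 8.24 and 8.38 CPM in all other cells. Tnfrsf13b (TACI) had 161, 138, 179 and 142 CPM in mature B cells against 54.2, 57.0, 52.2 and 52.5 CPM in all other cells, and Mcl1 had 242, 322, 395 and 348 CPM in mature B cells against 108, 124, 108 and 114 CPM in all other cells. Nfkb2 and Birc3 were the other 2. Bcl2 had 169, 166, 164 and 142 CPM in mature B cells against 95.7, 118, 96.6 and 96.7 CPM in all other cells. Unc93b1, which carries Toll-like receptors to endosomes, was higher at 198, 221, 223 and 250.4 CPM in mature B cells against 51.7, 52.6, 51.8 and 52.7 CPM in all other cells, whereas Tlr7 and Tlr9 each had a UMI in 3 cells. In the interferon list 2 of 13 genes tested were higher, Ifi27l2a (286, 101, 149 and 437 CPM in mature B cells against 33.6, 29.5, 30.1 and 30.4 CPM in all other cells) and Ifi209.

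Genes of B cell subsets were seen in some of the cells, at depths where 1 UMI is the usual value. Fcer2a (CD23), a follicular gene, had a UMI in 38 cells, 27.1%, namely 9, 8, 13 and 8 in libraries 1 to 4. Cr2 (CD21) had a UMI in 27 cells, with 8 cells sharing both. After thinning to 1500 UMIs, Fcer2a was seen in 21.3% of mature B cells and 0.06% of Kit-positive cells without Cd79a, and Cr2 in 9.56% and 0.43%. Fcer2a CPM was 95.3, 73.7, 127 and 44.8 in mature B cells and 0.409, 0.429, 0.369 and 0.412 in all other cells.

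Several genes of other subsets were at 0, and others were seen in some of the cells. Of 4 marginal zone genes tested, Cr2 alone was higher over the 140 cells, and with the 95 cells Cr2 and Dtx1 of 5 were. Dtx1 had 71.0, 34.6, 68.7 and 29.9 CPM in the 95 cells against 0.0705, 0.084, 0.111 and 0.119 CPM in all other cells. Cd9 had 51.3, 286, 119 and 97.2 CPM in mature B cells against 108, 100.1, 118 and 126 CPM in all other cells, higher by the rule in library 2 alone. It had a UMI in 32 cells, 16 of them among the 95. Cd5 and Itgam of the B1 list, Gcsam and Rgs13 of the germinal centre list, and Tbx21 and Itgax of the age-associated list were at 0 in all 140 cells. In these lists 6 of 8, 5 of 8 and 6 of 8 genes were detected. The B1 list summed to 95.3, 203, 112 and 157 CPM in mature B cells against 162, 193, 163 and 170 CPM in all other cells. Bhlhe41, a B1 gene, had a UMI in 17 cells, 12 of them in library 4. Zbtb32 had a UMI in 6 cells, Fcrl5 in 12 and Cd80 in 5.

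Of genes of immature cells, Cd93 and Myb were seen only in cells with other-type UMIs, while Vpreb3 was also seen in cells without them. The split itself used progenitor genes such as Kit and Cd34. Cd93, a marker of transitional B cells and also of stem cells, had a UMI in 11 cells, all 11 among the 20 deep cells with other-type UMIs, and in none of the 95 without such UMIs. Myb had a UMI in 20 cells and in none of the 95. Vpreb3, expressed in immature B cells, had a UMI in 55 cells and in 35 of the 95, at 213, 207, 292 and 299 CPM in these 95 against 81.7, 61.5, 91.1 and 95.9 CPM in all other cells.

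Cell cycle transcripts were low in most of the cells. The 16 G2 and M phase genes had no UMI in 98 of the 140 cells, and 13 cells had 5 or more UMIs of them, 11 of which were among the 20 deep cells with other-type UMIs. Over all 140 cells the S phase list summed to 1268, 801, 425 and 1005 CPM, against 1576, 1742, 1567 and 1475 CPM in all other cells. No gene met the rule, where 0.388% of all tested genes were lower. In the 95 cells without other-type UMIs the sum was 195, 380.1, 258 and 329 CPM, and 10 of 14 S phase and 6 of 14 G2 and M phase genes tested were lower. Mki67, a marker of cycling cells, had 35.5, 0, 17.2 and 89.8 CPM in the 95 cells against 389, 599, 320.1 and 351 CPM in all other cells.

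One cell without other-type UMIs stood apart. It came from library 4 and had 22061 UMIs, of which 105 were of G2 and M phase genes, 184 of Ighm, 146 of Igkc and 29 of Ms4a1. Another, with 5521 UMIs in library 1, had 17 G2 and M phase UMIs. The other two cells above 5000 UMIs without other-type UMIs were in library 4, at 5339 and 7959 UMIs, and had 1 and 0 such UMIs.

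Quiescence genes were higher for 4 of 11 tested, and for 7 of 11 with the 95 cells without other-type UMIs. Btg1, which restrains proliferation, had 315, 322, 454 and 340.1 CPM in mature B cells against 46.0, 46.2, 48.3 and 47.5 CPM in all other cells, and Btg2 had 183, 147, 134 and 217 CPM in mature B cells against 35.9, 39.6, 34.6 and 36.4 CPM in all other cells. Slfn2 had 147, 55.3, 171 and 123 CPM in mature B cells against 8.78, 8.49, 12.2 and 21.6 CPM in all other cells. No tested glycolysis, nuclear oxidative phosphorylation or ribosome biogenesis gene met the rule in either direction over the 140 cells. With the 95 cells, 2 of 10, 1 of 18 and 1 of 12 were lower. Over all tested genes 2.95% were higher and 0.388% lower with the 140 cells, and 7.13% were lower with the 95. The counts of 1 of 18 and 1 of 12 are near that last share.

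Of the SRCAP complex and H2A.Z genes, none of 12 tested was higher or lower (median log2 ratio -0.37 against -0.16 over all genes). Over all tested genes 2.95% were higher and 0.388% lower, so a list of this size with no call is near that share. Srcap itself had 80.6, 175, 37.2 and 29.9 CPM in mature B cells against 59.1, 82.0, 53.2 and 54.2 CPM in all other cells, with UMIs in 24 cells, so each library rests on few counts, and the groups overlapped. H2afz, which encodes H2A.Z, had 1253, 1078, 946 and 1424 CPM in mature B cells against 1945, 1929, 2087 and 1969 CPM in all other cells. In the 95 cells it had 639, 553, 344 and 778 CPM. With these cells H2afz and Znhit1 were lower by the rule among 12 genes tested, where 7.13% of all tested genes were lower.

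The genes that stood highest against all other cells, beside those above, were Fcmr, Scd1, Cd2 and Ly6d. Fcmr, the receptor for immunoglobulin M, had 579, 396, 656 and 534 CPM in mature B cells against 1.17, 0.832, 1.15 and 1.86 CPM in all other cells, and a UMI in 105 cells. Scd1, a fatty acid desaturase, had 154, 249, 134 and 168 CPM in mature B cells against 0.804, 0.689, 1.11 and 1.81 CPM in all other cells. Ly6d, a surface protein of the lymphoid lineage, had 1509.5, 1207, 1617 and 1809 CPM in mature B cells against 46.7, 40.8, 70.8 and 92.8 CPM in all other cells. Only Fut8, Cd93, Lyz2 and Creg1 of the 12 lowest well-expressed genes met the rule in all libraries. Fut8, a fucosyltransferase, had 29.3, 46.1, 29.8 and 44.8 CPM in mature B cells against 121, 147, 129 and 124 CPM in all other cells. Lyz2, the myeloid lysozyme, had 87.9, 82.9, 89.4 and 93.4 CPM in mature B cells against 201, 184, 217 and 225 CPM in all other cells. Of the 175 higher genes, 166 were also higher with the 95 cells, which is 94.9% of the 175 and 57.8% of the 287. Of the 23 lower genes, 15 were lower there too, 65.2% of the 23 and 3.67% of the 409.

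Against pro-B and pre-B cells of the same library, 246 of 5629 genes were higher in mature B cells (4.37%) and 221 lower (3.93%). With the 95 cells without other-type UMIs, 330 of 5463 were higher (6.04%) and 502 lower (9.19%). The medians over all genes were -0.05 and -0.24. MHC class II genes were higher in all 10 tested (median log2 ratio 3.74). The whole list summed to 459, 356, 320 and 306 CPM in pro-B and pre-B cells. The filter uses the mean of both sides, so a gene near 0 there enters through mature B cells and can only come out higher. H2-DMb2, at 1.99, 2.87, 3.96 and 3.16 CPM in pro-B and pre-B cells, is an example, so the count is a description. Cd74 had 6639, 5435, 7986 and 6259.7 CPM in mature B cells against 81.5, 33.2, 31.7 and 36.1 CPM in pro-B and pre-B cells. H2-Eb1, the beta chain of I-E, had 1583, 1428, 2257 and 1514 CPM in mature B cells against 21.3, 9.25, 8.86 and 8.80 CPM in pro-B and pre-B cells. Inhibitory genes were higher for 7 of 10 and survival genes for 6 of 7, among them Bcl2 at 169, 166, 164 and 142 CPM in mature B cells against 28.6, 33.2, 20.5 and 31.6 CPM in pro-B and pre-B cells.

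The factors and receptor genes shared by both stages differed less. Pax5 had 176, 258, 238 and 157 CPM in mature B cells against 169, 238, 178 and 201 CPM in pro-B and pre-B cells, which overlapped. Ebf1 had 586, 534, 715 and 389 CPM in mature B cells against 1536, 1516, 1597 and 1600.3 CPM in pro-B and pre-B cells and counted as lower, as did Tcf3, whereas with the 95 cells none of 20 factors was lower. Spib, Pou2f2, Ikzf3, Klf2 and Zfp318 were higher. Ikzf3 (Aiolos) had 73.3, 147, 127 and 59.8 CPM in mature B cells against 0.199, 0, 0 and 0 CPM in pro-B and pre-B cells. Blnk, the adaptor of the pre-B and B cell receptors, had 87.9, 55.3, 149 and 116 CPM in mature B cells against 278, 313, 292 and 316 CPM in pro-B and pre-B cells and missed the rule in library 3.

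Of 16 genes of the pro-B and pre-B program outside the rules, 11 were lower in mature B cells and none higher. The pro-B and pre-B cells were chosen by Igll1 and Vpreb1 of the same program. Genes at 0 in mature B cells pass the filter only through the pro-B and pre-B cells, so the count is a description. The median log2 ratio was -3.23, or -2.93 with the 3 genes at 0 in all mature B cells (Vpreb2, Rag1 and Rag2) set to 3 UMIs over the group. Il7r, the receptor for the growth factor IL-7, had 0, 0, 0 and 3.74 CPM in mature B cells against 206, 251, 229.6 and 230.1 CPM in pro-B and pre-B cells. Dntt, which adds bases at heavy chain joints, had 7.33, 9.21, 14.9 and 146 CPM in mature B cells against 1148, 1121, 1344 and 1338 CPM in pro-B and pre-B cells, and 1 of the 95 cells without other-type UMIs had a UMI of it. Vpreb3 had 125, 175, 179 and 127 CPM in mature B cells against 1792, 1835, 1949 and 1947 CPM in pro-B and pre-B cells. Ccnd3, the D cyclin of dividing pre-B cells, had 58.6, 101, 67.0 and 82.2 CPM in mature B cells against 685, 642, 649 and 686 CPM in pro-B and pre-B cells.

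Cycle genes were lower against pro-B and pre-B cells for 8 of 16 S phase and 12 of 16 G2 and M phase genes. With the 95 cells they were lower for 14 of 15 and 14 of 16. Mki67 had 278, 341, 96.8 and 153 CPM in mature B cells against 935, 1419, 785 and 929 CPM in pro-B and pre-B cells. Of 12 SRCAP complex and H2A.Z genes tested, H2afz (1253, 1078, 946 and 1424 CPM in mature B cells against 3555, 3532, 3996 and 3957 CPM in pro-B and pre-B cells), H2afv (308, 267, 462 and 355 CPM in mature B cells against 951, 882, 1004 and 995 CPM in pro-B and pre-B cells) and the H2A.Z chaperone Anp32e were lower. Over all tested genes 3.93% were lower, and 9.19% with the 95 cells. The list's median log2 ratio was -0.65, and -1.23 with the 95 cells, against -0.05 and -0.24 over all genes. Cd55, a complement regulator, was among the 12 highest genes at 264, 350.1, 402 and 213 CPM in mature B cells against 5.77, 4.46, 5.13 and 3.16 CPM in pro-B and pre-B cells, as was Ltb, a cytokine that shapes lymphoid tissue, at 659, 663, 946 and 583 CPM in mature B cells against 28.4, 27.1, 26.3 and 19.4 CPM in pro-B and pre-B cells. Bfsp2, Lef1, Cplx2, Pde2a, Arpp21, Cecr2 and Myl10 were among the 12 lowest. Lef1, a factor of pro-B cell growth, had 7.33, 0, 0 and 7.47 CPM in mature B cells against 184, 238, 217 and 217 CPM in pro-B and pre-B cells, and Bfsp2 had 22.0, 27.6, 22.3 and 33.6 CPM in mature B cells against 547, 539, 618 and 610.2 CPM in pro-B and pre-B cells.

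Of 6 stem and progenitor genes tested, Cd34, Mecom and Meis1 were higher than in pro-B and pre-B cells over the 140 cells, beside the other-type UMIs given above. Over all tested genes 4.37% were higher. Over the 95 cells Cd34, Mecom and Meis1 lay under the filter, Cd34 being at 0 by choice.

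Against plasma cells, 231 of 5544 genes were higher (4.17%) and 270 lower (4.87%). With the 95 cells without other-type UMIs, 287 of 5233 were higher (5.48%) and 318 lower (6.08%), and the medians over all genes were 0.24 and 0.03. With immunoglobulin UMIs kept in the totals, of which plasma cells hold many, 1181 genes were higher and 119 lower, and the median over all genes was 1.06, a shift of 0.82. The share of calls that are higher was 46.1% without and 90.8% with these UMIs, so levels against plasma cells are relative to the chosen total. All 11 plasma cell genes were lower over the 140 cells with either total (median log2 ratio -4.23), and with the 95 cells and all UMIs in the total 9 of 11 were, without Prdm1 and Irf4. Xbp1, the factor of the secretory response, had 29.3, 9.21, 67.0 and 71.0 CPM in mature B cells against 1324, 1500.5, 1681 and 1833 CPM in plasma cells. Sdc1 and Tnfrsf17 were at 0 in all mature B cells, against 245, 221, 272 and 257 CPM and 261, 353, 388 and 453 CPM in plasma cells. Genes at 0 in mature B cells pass the filter only through plasma cells, which were themselves chosen by Jchain, so the count of 11 is a description. Mzb1, a chaperone of antibody assembly, had 264, 267, 477 and 647 CPM in mature B cells against 3418, 3025, 3848 and 4440.4 CPM in plasma cells.

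Factors of B cell identity were higher for 11 of 21 tested against plasma cells, and for 14 of 21 with all UMIs in the total. Pax5 had 176, 258, 238 and 157 CPM in mature B cells against 2.10, 0, 0 and 1.93 CPM in plasma cells, and Ebf1 had 586, 534, 715 and 389 CPM in mature B cells against 18.9, 17.4, 21.6 and 18.1 CPM in plasma cells. Irf4 was lower over the 140 cells with either total. Pou2af1, a coactivator of immunoglobulin genes, was also lower, with 65.9, 92.1, 127 and 123 CPM in mature B cells against 243, 310.0, 322 and 335 CPM in plasma cells, but not with the 95 cells or with all UMIs in the total. MHC class II genes were higher for 8 of 12, and for 9 of 10 with all UMIs in the total, while Cd74 had 6639, 5435, 7986 and 6259.7 CPM in mature B cells against 6213, 5064, 7181 and 7447 CPM in plasma cells, which overlapped over the 140 cells. Of 10 co-receptor genes, 7 were higher, and Cd81 was lower, though not with all UMIs in the total, at 191, 166, 246 and 153 CPM in mature B cells against 509.6, 460.1, 679 and 567 CPM in plasma cells. Fcrla, an intracellular Fc receptor-like protein of B cells, had 109.9, 129, 186 and 209 CPM in mature B cells against 273, 241, 292 and 385 CPM in plasma cells and did not meet the rule. Of 10 survival genes tested, none was higher and Tnfrsf17 was lower, while with all UMIs in the total 1 of 8 was higher. Cycle lists differed in sign between the cell sets. The S phase median was 0.74 with all 140 cells and -0.73 with the 95, and that of G2 and M phase 1.23 and -1.22, with 3 of 14 genes higher in the first set and 0 of 7 in the second.

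The genes furthest below plasma cells were secretory and plasma cell genes. Prg2, Eaf2, Tnfrsf17, Sdc1 and Chst1 were at 0 in all 140 mature B cells. Prg2, known as an eosinophil granule gene, had 1544, 1277, 2257 and 1823 CPM in plasma cells. Txndc5, a disulfide isomerase of the endoplasmic reticulum, had 80.6, 73.7, 89.4 and 82.2 CPM in mature B cells against 1625, 1752, 1951 and 2169.9 CPM in plasma cells. Derl3, a protein of endoplasmic reticulum degradation, had 0, 0, 0 and 7.47 CPM in mature B cells against 306, 299, 412 and 395 CPM in plasma cells. Id3, an inhibitor of E proteins, stood among the highest at 117, 101, 119 and 138 CPM in mature B cells against 3.15, 2.48, 0 and 2.58 CPM in plasma cells.

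The 3 comparisons share the same mature B cells. Genes higher in both versions numbered 189 against pro-B and pre-B cells (76.8% of 246 and 57.3% of 330) and 167 against plasma cells (72.3% of 231 and 58.2% of 287). Genes lower in both versions numbered 191 (86.4% of 221 and 38.0% of 502) and 193 (71.5% of 270 and 60.7% of 318).

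**Figure D5:**
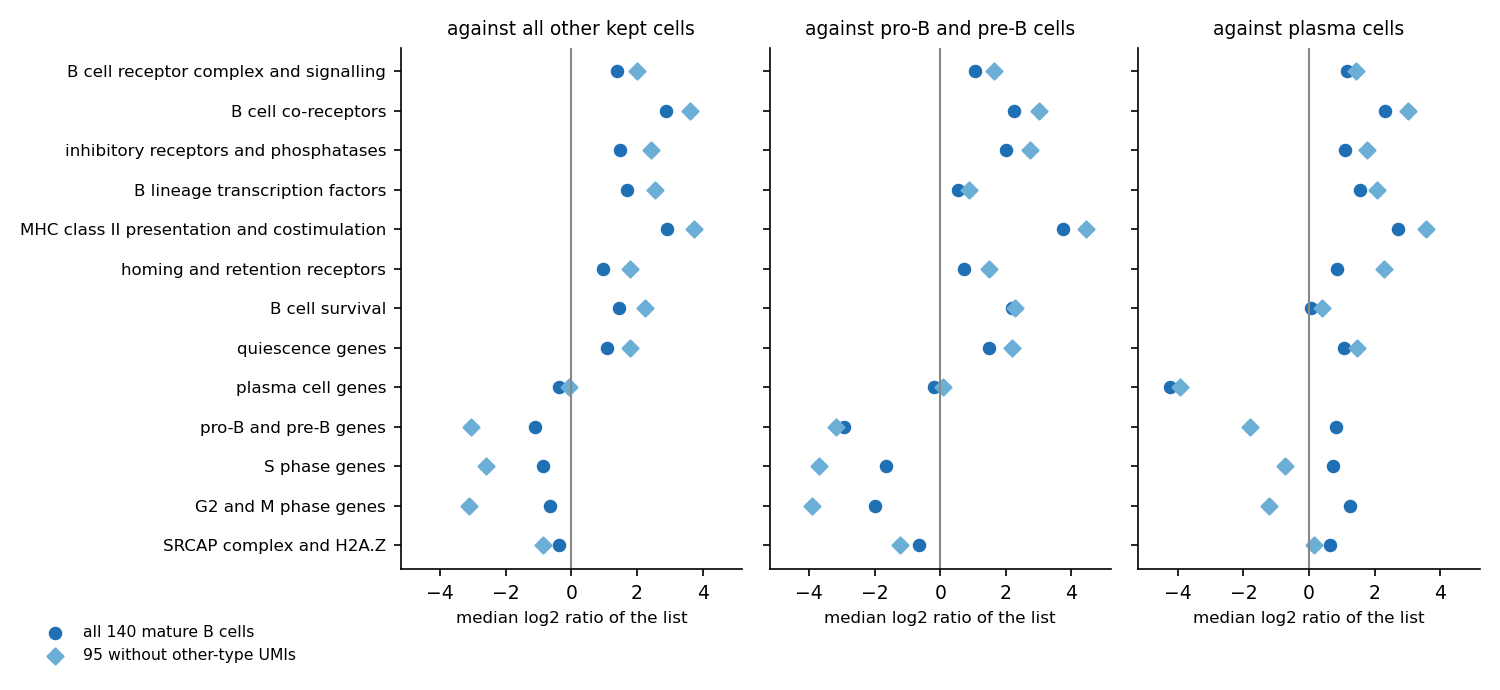
Median log2 ratio of CPM plus 5 over the tested genes of 13 lists, mature B cells over each of 3 groups, with circles for all 140 cells and diamonds for the 95 without other-type UMIs; genes at 0 on a side are set to 3 UMIs over the group. The class II list stands at 2.91, 3.74 and 2.70 for all 140 cells, and the cycle lists lie further left for the 95 cells in all 3 panels.

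The lists of other cell types hold several of the 9 genes that split the cells, so low sums in the 95 cells are in part set by that choice. Over the 140 cells the stem and progenitor list (7 genes, all detected) summed to 667, 728, 633 and 385 CPM, against 1046, 1309.6, 1015 and 1062 CPM in all other cells. In the 95 cells it summed to 35.5, 0, 17.2 and 29.9 CPM, with Procr and Gata2 at 0 and Kit and Cd34 at 0 by choice. The megakaryocyte list (3 of 4 genes detected) reached 2607 CPM in library 2 and at most 80.6 CPM in the others, and the neutrophil list (4 of 5 detected) 1943 CPM in library 4. Both lists summed to at most 17.2 CPM per library in the 95 cells, where Pf4 of the megakaryocyte list and Elane and Mpo of the neutrophil list are at 0 by choice. A library 2 cell of 22901 UMIs held 270 UMIs of the 9 other-type genes. In library 4, cells of 23803 and 38544 UMIs held 266 and 259. Such sums can thus rest on single cells, and they were not split by cell. Of the T cell list, Cd3e, Cd3d, Trac, Trbc2, Cd4 and Cd8a were at 0 in all 140 cells. The part of these transcripts in the results was not tested.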

How the data were processed

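Single cells were sequenced with the 10x 3' v3.1 chemistry, per the labels' protocols. The authors deposited 1 aggregated matrix of raw UMI counts for 32285 genes and 44151 barcodes, written by Cell Ranger 6.1.2 (per the matrix's own header) after alignment to mm10, as the submitters' processing notes name it. Barcode suffixes 1 to 4 name libraries, and the planned mutant against WT test was not run because no label ties them to samples.

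The filter on cells was 500 genes or more and no more than 10% of UMIs mitochondrial. UMIs were summed per library and group in Python 3.11.15 with numpy 2.4.6, scipy 1.17.1 and pandas 2.3.3. CPM left 392 immunoglobulin features out of the totals. Genes at 20 CPM or more were compared by log2 of CPM plus 5, and called past 2-fold in all 4 libraries. The step that makes these calls was checked on simulated counts with known changes, which is no test of the calls themselves. Member genes of 36 lists could be named, and per comparison the 12 highest and 12 lowest genes that reached 100 CPM in every library of the group where they stood higher, ordered by their least extreme library. Members, lists and rules were chosen with earlier results of these data known. Shares have exact 95% binomial intervals (a gene at 0 is given the limit of 3 counts instead), and thinning drew 1500 UMIs per cell (seed 1), leaving out 4 shallower mature B cells. No doublet caller was run; cells with UMIs of 9 other-type genes were instead left out as an alternative. The limit of 8000 UMIs, equal weight per cell and the light chain with more UMIs were chosen after seeing the data. UMIs count molecules caught, so intervals cover counting error only. Some genes of these lists are not reported here.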

Additional observations from a re-analysis of the deposited data

How the results depend on the processing

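The share of kept cells, 0.34%, was 0.155% with at least 1000 genes per cell, 0.271% with a mitochondrial limit of 5%, 0.175% with 2 UMIs of each gene of the rule, 0.564% without Ighd, 0.231% without cells with other-type UMIs and 0.217% (89 of 40984 cells) when the rule was applied after thinning. Lambda took 25% and kappa 72.9% of cells by the chain with more UMIs, against 16.5% and 33.8%.

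Against all other kept cells (175 higher, 23 lower), the higher count was 107 with a filter of 50 CPM, 288 at 1.5-fold, 287 without cells with other-type UMIs, 313 with cells at 8000 UMIs or fewer and 281 with equal weight per cell. The lower count was 5 with a pseudocount of 20 CPM, 49 and 8 with filters of 5 and 50 CPM, and 137, 409, 461 and 375 under the other 4 settings in the same order. Leaving out 1 library gave 178 to 202 higher and 42 to 53 lower.

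Against pro-B and pre-B cells (246 higher, 221 lower), the higher count was 151 with a pseudocount of 20 CPM, 134 with a filter of 50 CPM and 423 at 1.5-fold. The lower count was 524 at 1.5-fold, 502 without cells with other-type UMIs, 544 at 8000 UMIs or fewer and 476 with equal weight. Leaving out 1 library gave 260 to 310 higher and 243 to 304 lower.

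Against plasma cells (231 higher, 270 lower), 1181 were higher and 119 lower with immunoglobulin UMIs in the totals, 129 were higher with a pseudocount of 20 CPM and 142 with a filter of 50 CPM, and 571 were higher and 425 lower at 1.5-fold. Leaving out 1 library gave 276 higher without library 3 to 361 without library 2, and 287 to 315 lower. Counts without a library are larger by construction, since only 3 libraries must be alike.

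No paired analysis was possible because the barcode suffixes carry no sample or replicate label. The genotype of each library is unknown, so no value separates Srcap_mutant from WT cells. Low depth limits single-gene shares: a count of 0 in all 140 cells allows a share of up to 2.14% of cells with a UMI. The cause of the shifts without deep or other-type cells was not tested.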
